A study of Arabidopsis thaliana with 3 samples.

Results

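Chlorophyll and the other tetrapyrroles are made in plastids by 1 branched pathway, and 36 of its nuclear genes were examined in Arabidopsis inflorescences that express a variant of the floral regulator SEPALLATA3. The genes were taken by locus identifier from textbook steps of the pathway, from glutamyl-tRNA reductase (HEMA1) to the last steps of chlorophyll synthesis, the haem and bilin branch, and chlorophyll breakdown. All 36 were among the 19777 genes of the authors' deposited table. The transgenic group consisted of 3 independent lines of the sep1 sep2 sep3 triple mutant that carry SEP3Δtet, with 1 library per line, and it was set against the sep1 sep2 sep3 triple mutant without the transgene. Both groups therefore carry the sep1, sep2 and sep3 mutations, and the transgene adds a SEP3 form to the transgenic group. The title of the series calls the variant a splice form of SEP3. MADS-domain proteins such as SEP3 act as tetramers, and SEP3Δtet is known as a form impaired in tetramer formation. The tissue was inflorescence meristem with flower buds, whose oldest stages the labels give as 10 to 11 for line 1, 10 to 12 for line 2, and 10 to 13 for line 3. Plants grew side by side in long days. The promoter that drives the transgene and the number of triple mutant libraries are not stated in the labels or the series text. The samples listed are the SEP3Δtet libraries only, so no bud stage is listed for the triple mutant.

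The pathway starts from glutamate, which is turned into 5-aminolevulinic acid (ALA). ALA is built up to protoporphyrin IX, where the path divides. Insertion of magnesium leads to chlorophyll, and insertion of iron leads to haem and the bilin pigment of the phytochromes. Free intermediates are phototoxic, so flux is held back in the dark and the early steps and the magnesium step are the known control points. In flowers the green tissues are mainly sepals, young carpels and the young anther wall, while breakdown enzymes degreen ageing organs.

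The values are the log2 fold change of SEP3Δtet lines over triple mutant, the average log2 CPM (read counts scaled to library size) over all libraries, and the F statistic with its p-value and adjusted p-value, all from the authors' deposited table. No value per library was used here, so neither the level in each line nor the spread between lines is shown. A gene is called here when edgeR's quasi-likelihood test gave it an adjusted p under 0.05. By that rule 5.88% of all 19777 genes were lower and 11.6% higher in the SEP3Δtet lines. SEP3 itself had a log2 fold change of 2.27 per the authors' deposited table, the direction its transgene gives. LFY, AP1, AP3, PI and AG, markers of floral meristems and organs, averaged 4.36 to 7.81 log2 CPM per the authors' deposited table, so floral RNA was present as labelled.

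Most genes of chlorophyll synthesis stood lower in the SEP3Δtet lines than in the triple mutant, by small amounts. Of the 36 genes, 11 fell, 1 rose and 24 were not called. The 11 that fell are HEMA1, FLU, PPOX1, CHLD, CHLH, GUN4, CHLM, CRD1, CHLP, CHLG and CAO, and the 1 that rose is the ferrochelatase gene FC1. The falls ran from -0.27 to -0.64 on the log2 scale per the authors' deposited table, and 0 genes were halved. The median log2 fold change of the 36 was -0.22, against -0.0009 over all genes of the authors' deposited table. Values below 0 were held by 29 of the 36 genes, or 80.6%, against 50.1% of all genes. The pathway is well expressed, and among the 11607 genes of at least 4 log2 CPM, where 8.18% were lower, 6.55% higher and 58.4% below 0, the median was -0.04. In that range lay 33 of the 36 genes, with the same 11 lower and 1 higher, and a median of -0.22. At an unadjusted p under 0.05, 22 of the 36 genes were lower and 2 higher, against 12.6% and 17.1% of all genes. Of the 33 genes of at least 4 log2 CPM, 22 were lower and 1 higher by that unadjusted p. The shares over all genes of that range were 16.9% lower and 11.1% higher. Another 8 genes, all with values below 0, had an adjusted p between 0.05 and 0.1. In that band lay 650 lower and 534 higher genes of all 19777. The 11607 genes of at least 4 log2 CPM held 494 lower and 236 higher genes in it.

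**Figure D1:**
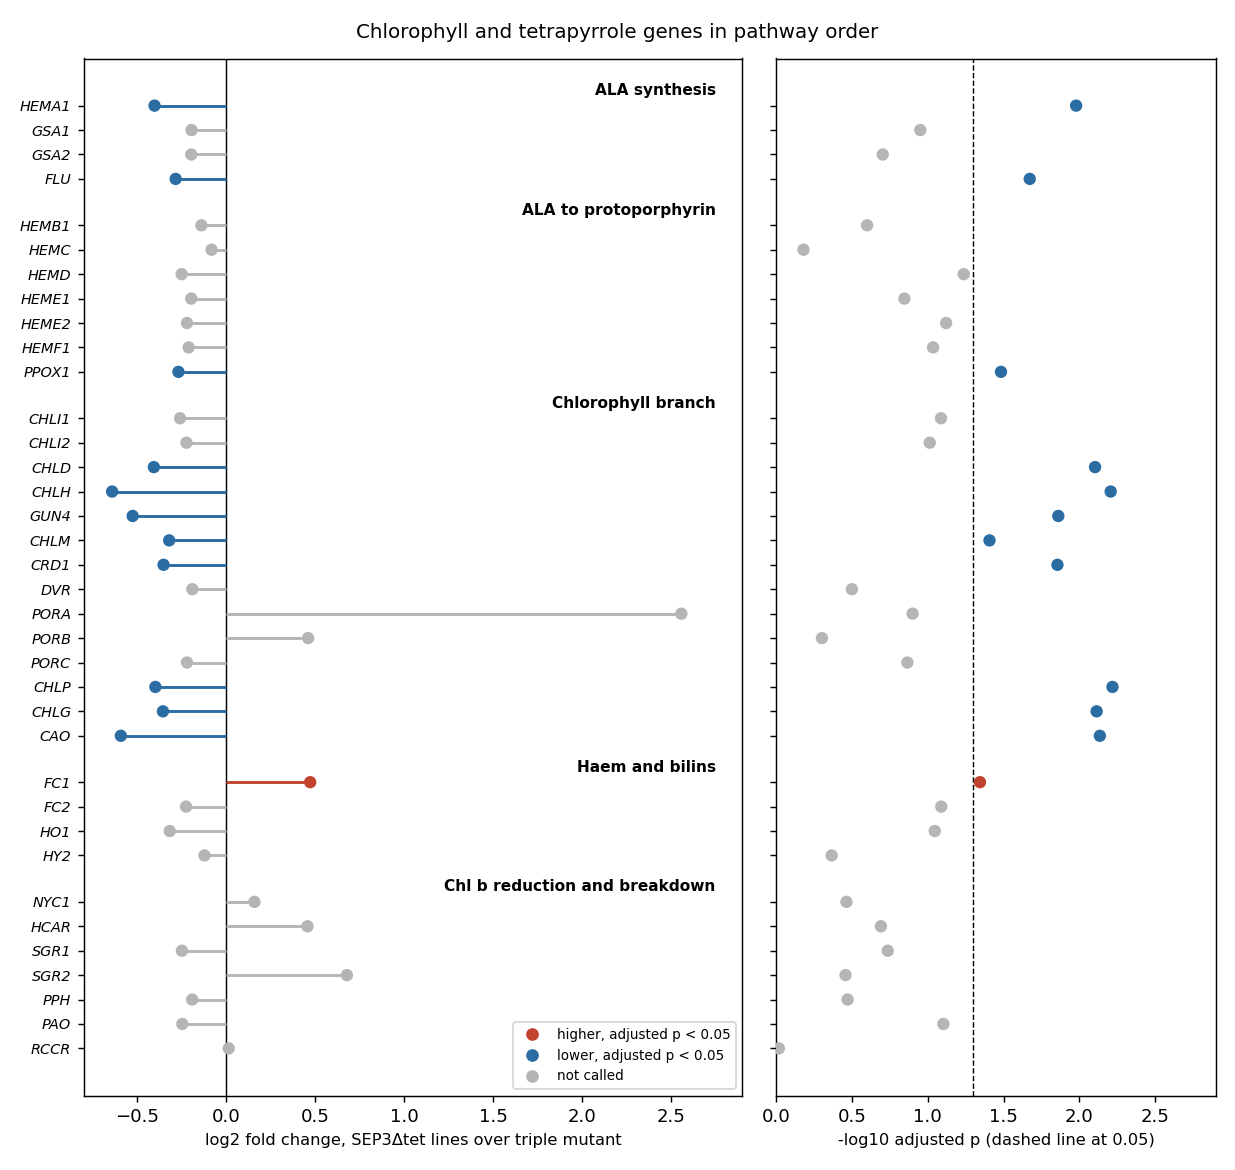
The 36 genes in pathway order, with the log2 fold change of SEP3Δtet lines over triple mutant on the left and the -log10 adjusted p of the authors' deposited table on the right, where the dashed line marks 0.05. Blue points are the 11 genes that fell, the red point is FC1, and grey points are the 24 genes not called. The chlorophyll branch holds 8 of the blue points. None of the 7 breakdown genes drawn passes the line, which lies near the share over all genes. The breakdown genes NOL, SGRL and TIC55, not drawn here, fell.

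Upstream DNA is shown for the pair of chlorophyll branch genes with the largest falls (CHLH and CAO), for the 1 gene that rose (FC1) and for the gene with the largest value that was not called (PORA). Each sequence holds the 250 bases before the gene start of RefSeq's TAIR10.1 annotation, read 5′ to 3′ on the gene's strand, and none overlaps an exon of a neighbouring gene. Capitals mark the motifs searched on both strands: the G-box CACGTG (bound by bZIP and bHLH proteins such as HY5 and the PIFs), CCAATC (an element of promoters that respond to GLK proteins), CACGCGC (the FHY3 site), the evening element AAAATATCT, and the CArG box of MADS-domain proteins.
CHLH upstream, chr5:4392430-4392679, minus strand: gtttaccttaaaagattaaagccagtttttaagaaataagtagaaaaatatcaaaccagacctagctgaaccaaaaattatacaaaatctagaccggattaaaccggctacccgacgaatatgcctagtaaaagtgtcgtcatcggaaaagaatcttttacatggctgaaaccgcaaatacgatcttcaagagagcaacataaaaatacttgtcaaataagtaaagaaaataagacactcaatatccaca
CAO upstream, chr1:16851272-16851521, minus strand: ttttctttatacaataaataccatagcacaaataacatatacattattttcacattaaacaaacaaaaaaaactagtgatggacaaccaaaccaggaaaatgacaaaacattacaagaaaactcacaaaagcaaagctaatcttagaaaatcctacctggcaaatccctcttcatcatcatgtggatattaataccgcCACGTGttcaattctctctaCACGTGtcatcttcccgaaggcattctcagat
FC1 upstream, chr5:9096201-9096450, plus strand: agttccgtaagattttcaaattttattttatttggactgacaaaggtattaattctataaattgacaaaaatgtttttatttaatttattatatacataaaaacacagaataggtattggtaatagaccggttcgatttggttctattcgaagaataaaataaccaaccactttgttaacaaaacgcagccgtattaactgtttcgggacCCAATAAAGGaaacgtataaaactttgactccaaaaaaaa
PORA upstream, chr5:21992815-21993064, minus strand: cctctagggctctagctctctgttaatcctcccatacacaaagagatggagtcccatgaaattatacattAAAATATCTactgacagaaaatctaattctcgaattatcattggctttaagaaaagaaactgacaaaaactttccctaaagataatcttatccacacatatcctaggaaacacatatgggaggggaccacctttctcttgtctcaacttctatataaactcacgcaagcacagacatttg

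None of the motifs lies in the upstream bases of CHLH, whose 1 CCAATC lies 39 to 44 bases from the start within the gene. CAO holds a pair of G-boxes, at -52 to -47 and -32 to -27 from its start. FC1 holds 1 CArG box at -40 to -31 and PORA 1 evening element at -180 to -172. Over windows of 300 bases, which add the first 50 bases of the gene, a G-box was found in 7 of the 36 genes, or 19.4%, against 8.70% of 19755 genes of the table. Those 7 were HEMD, CRD1, CAO, FC2, HY2, NYC1 and SGR2. CRD1 and CAO are 2 of the 11 that fell, and 12.1% of all 1163 genes that fell held a G-box. CCAATC was found in GSA2, PPOX1, CHLH, GUN4, PORB and PORC, 16.7% of the 36 against 12.7% of the 19755 genes. A CArG box was found in HEMF1 and FC1, 5.56% of the 36 against 3.22%, and in 0 of the 11 genes that fell. The evening element occurred in PORA, PORB and NYC1, 8.33% against 3.03%, and CACGCGC in 0 of the 36 against 1.70%. Of the genes named with a motif, GSA2, GUN4, PORB, PORC, CRD1 and FC2 have upstream bases that overlap exons of a neighbouring gene. These matches describe letters in the window and say nothing of binding.

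ALA synthesis sets the supply of the whole pathway, and all 4 genes placed there had values below 0. Over all genes 50.1% had values below 0 and 5.88% were called lower. HEMA1, whose glutamyl-tRNA reductase makes the committed step, fell by 0.40 on the log2 scale per the authors' deposited table, or 24.4% (7.67 average log2 CPM, F = 18.7, adjusted p = 0.010). FLU, whose protein holds back that enzyme in the dark, fell by 0.28 per the authors' deposited table, or 17.9% (F = 14.3, adjusted p = 0.021). The enzyme's gene and the gene of its inhibitor thus both fell. GSA1 and GSA2, which encode the aminotransferases that complete ALA, stood at -0.19 and -0.20 per the authors' deposited table and were not called (adjusted p = 0.112 and 0.199). HEMA1 (AT1G58290) occupies positions 21623700 to 21626402 of chromosome 1, minus strand, in TAIR10.1.

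The 7 genes between ALA and protoporphyrin IX all had values below 0, and 1 of them fell. Over all genes 50.1% had values below 0 and 5.88% were called lower. PPOX1, which encodes the protoporphyrinogen oxidase of plastids, fell by 0.27 on the log2 scale per the authors' deposited table, or 17.0% (F = 11.9, adjusted p = 0.033). HEMD, for uroporphyrinogen III synthase, followed at -0.25 (adjusted p = 0.058), HEME2 at -0.22 (adjusted p = 0.076) and HEMF1 at -0.21 (adjusted p = 0.092) per the authors' deposited table. HEME1, which like HEME2 encodes a uroporphyrinogen decarboxylase, stood at -0.20 (adjusted p = 0.143) per the authors' deposited table. HEMB1 and HEMC, whose enzymes make porphobilinogen from ALA and link it into a chain, stood closest to 0, at -0.14 and -0.08 per the authors' deposited table (adjusted p = 0.252 and 0.662). The 7 genes together had a median of -0.21, and 5, PPOX1 included, had an unadjusted p under 0.05. By that unadjusted p, 12.6% of all genes and 16.9% of genes of at least 4 log2 CPM were lower. An adjusted p between 0.05 and 0.1 was held by 3 of the 7, against 650 lower and 534 higher genes of all 19777.

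The chlorophyll branch held 8 of the 11 genes that fell, among its 14 genes. The share called lower was 5.88% over all genes and 8.18% over genes of at least 4 log2 CPM. Magnesium chelatase opens it. CHLH, the large porphyrin-binding subunit of the chelatase, known also as GUN5 in plastid-to-nucleus signalling, had the largest fall of all 36 genes, by 0.64 on the log2 scale or 35.9% per the authors' deposited table (F = 22.3, adjusted p = 0.0062). It is also the most abundant by counts, at 9.93 average log2 CPM per the authors' deposited table. CHLD, the subunit that joins CHLH to the ATPase ring, fell by 0.41 or 24.6% per the authors' deposited table (F = 20.6, adjusted p = 0.0079). GUN4, whose protein binds the porphyrin and stimulates the chelatase, fell by 0.53 or 30.5% per the authors' deposited table (F = 16.9, adjusted p = 0.014). CHLI1 and CHLI2, the ATPase subunits, stood at -0.26 and -0.22 per the authors' deposited table and were not called (adjusted p = 0.082 and 0.097). The subunits thus split by the test, with values below 0 for each, and whether their changes differ was not tested.

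The value of GUN4 has a limit of annotation. In TAIR10.1, 73.0% of its exon bases lie within exons of AT3G59410 (GCN2) on the opposite strand, and no source used here gives the strand setting of the counting. AT3G59410 itself stood at -0.05 (adjusted p = 0.823) per the authors' deposited table. Of the other 35 genes, CHLP shares 16.2% and RCCR 11.1% of exon bases with another gene, and no other single overlap reached 10%.

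After the chelatase, CHLM, CRD1, CHLP, CHLG and CAO fell, while DVR and the genes of the light-dependent reductases were not called. CHLM, which methylates Mg-protoporphyrin IX, fell by 0.32 or 19.9% per the authors' deposited table (F = 11.0, adjusted p = 0.039). CRD1, a subunit of the cyclase that closes the isocyclic ring, fell by 0.35 or 21.7% per the authors' deposited table (F = 16.8, adjusted p = 0.014). CHLP, which reduces geranylgeranyl groups to phytyl for chlorophyll and tocopherol, fell by 0.40 or 24.1% per the authors' deposited table (F = 22.5, adjusted p = 0.0060). CHLG, chlorophyll synthase, fell by 0.36 or 21.8% per the authors' deposited table (F = 20.8, adjusted p = 0.0077). CAO, the oxygenase that makes chlorophyll b from chlorophyll a, had the second largest fall, by 0.59 or 33.7% per the authors' deposited table (F = 21.1, adjusted p = 0.0073). DVR, the divinyl reductase, stood at -0.19 (adjusted p = 0.317) per the authors' deposited table. Of this branch, CHLH (AT5G13630) occupies positions 4387307 to 4392429 of chromosome 5 and CAO (AT1G44446) positions 16848308 to 16851271 of chromosome 1, both on the minus strand in TAIR10.1.

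None of the 3 protochlorophyllide oxidoreductase genes, whose enzymes need light, was called, and 2 of them had an unadjusted p under 0.05 in opposite directions. PORC, the form of green tissue in light, stood at -0.22 (unadjusted p = 0.037, adjusted p = 0.136) per the authors' deposited table. PORB stood at 0.46 (F = 1.39, adjusted p = 0.50) per the authors' deposited table. FC1 has nearly the same size of change, 0.47, with an F of 10.4 per the authors' deposited table, and since F sets the change against the spread between libraries, that spread was wider for PORB. PORA, the form of dark-grown seedlings, had the highest value of the 36, 2.56 (unadjusted p = 0.033, adjusted p = 0.126), at an average of only -0.56 log2 CPM per the authors' deposited table. A fitted fold of so rare a transcript depends on the prior count and is not a bound.

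**Figure D2:**
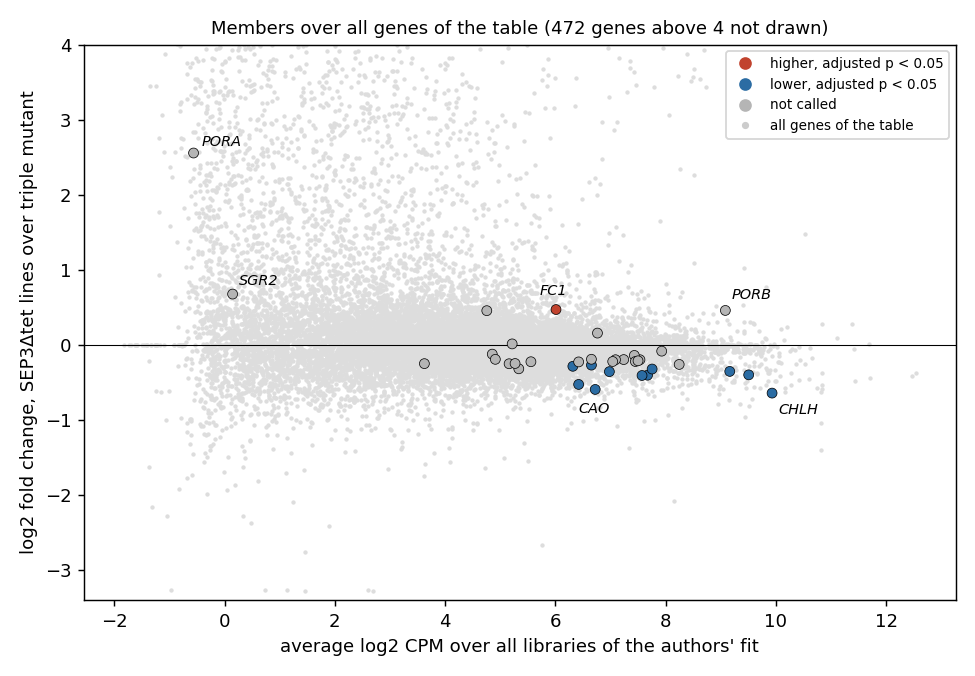
Log2 fold change of SEP3Δtet lines over triple mutant against average log2 CPM, for all genes of the authors' deposited table (light grey) and the 36 genes (outlined). The 11 genes that fell lie between 6.32 and 9.93 log2 CPM, while PORA and SGR2 sit at the low end, at -0.56 and 0.15 log2 CPM; 472 genes above 4 on the vertical axis are not drawn.

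In the haem and bilin branch 1 of 4 genes rose and 0 fell, against 11.6% higher and 5.88% lower among all genes. FC1, a ferrochelatase that inserts iron into protoporphyrin IX and is the form known from roots, non-green tissue and stress, rose by 0.47 on the log2 scale, 1.39-fold, per the authors' deposited table (F = 10.4, adjusted p = 0.045). FC2, the ferrochelatase of green tissue, stood at -0.23 (F = 7.62, adjusted p = 0.081) per the authors' deposited table. The ferrochelatases thus had opposite signs; the difference between them was not tested. The call of FC1 is close to the threshold, and its adjusted p was 0.054 when the adjustment was restricted to genes at 4 log2 CPM or above. HO1, the haem oxygenase that opens the ring, stood at -0.32 (adjusted p = 0.090) and HY2, which makes phytochromobilin, at -0.12 (adjusted p = 0.432) per the authors' deposited table. FC1 (AT5G26030) occupies positions 9096451 to 9099185 of chromosome 5, plus strand, in TAIR10.1.

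None of the 7 genes of chlorophyll b reduction and breakdown was called by edgeR's test, and 1 had an unadjusted p under 0.05. Among all genes 5.88% were called lower and 11.6% higher, so 0 calls among 7 genes lies near that share. That 1 was PAO, the oxygenase that opens the ring of pheophorbide, at -0.25 (unadjusted p = 0.017, adjusted p = 0.079) per the authors' deposited table. SGR1, the stay-green dechelatase of senescence, stood at -0.25 (adjusted p = 0.184) and PPH, which removes phytol, at -0.19 (adjusted p = 0.339) per the authors' deposited table. The other 4 had values above 0. NYC1, which starts chlorophyll b reduction, stood at 0.16 (adjusted p = 0.345) and HCAR, which completes it, at 0.46 (adjusted p = 0.204) per the authors' deposited table. SGR2, the homologue of SGR1, stood at 0.68 (adjusted p = 0.349, 0.15 log2 CPM) and RCCR, which reduces the red catabolite, at 0.01 (adjusted p = 0.964) per the authors' deposited table. The median of the 7 was 0.01, against -0.34 for the 14 genes of the chlorophyll branch; that these groups of genes differ was not tested.

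The highest levels per length were held by genes of the chlorophyll branch and the lowest by PORA and some breakdown genes, but the groups overlapped. After division by exon length from TAIR10.1, the average level ran from -1.29 log2 CPM per kb for PORA to 8.58 for CRD1, computed from the authors' deposited table. CHLP (8.44), PORB (8.37), CHLH (7.68) and CHLI1 (7.56) followed CRD1 in log2 CPM per kb, again from the authors' deposited table. At the low end, the breakdown genes SGR2 (-0.24), SGR1 (2.80), HCAR (3.60) and PPH (3.71) came next above PORA in log2 CPM per kb of the authors' deposited table. NYC1 (5.72), also of breakdown, stood above CAO (5.51) and CHLI2 (4.94) of the chlorophyll branch. These are averages over all libraries of both genotypes, with no spread, so neighbours in this order cannot be told apart.

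Isoenzyme genes had similar changes in 3 families (GSA, HEME and CHLI) and unlike ones in the other three. CHLI1 was 6.15-fold above CHLI2 per length, yet their log2 fold changes were -0.26 and -0.22 per the authors' deposited table. GSA1 and GSA2 lay within 1.36-fold per length, and HEME2 was 1.69-fold above HEME1, with changes that differed by 0.002 and 0.02 on the log2 scale per the authors' deposited table. FC2 stood 1.35-fold above FC1 per length, and this pair differed in log2 fold change by 0.70 per the authors' deposited table. PORB was 4.49-fold above PORC per length, and their log2 fold changes differed by 0.68 per the authors' deposited table. SGR1 was 8.27-fold above SGR2 per length, and their log2 fold changes were -0.25 and 0.68 per the authors' deposited table. PORA and PORB had log2 fold changes of 2.56 and 0.46 per the authors' deposited table, PORA at a very low level. None of these differences within a family was tested. No source used here says how reads shared by similar copies were treated, so the values of these pairs are uncertain to that extent.

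**Figure D3:**
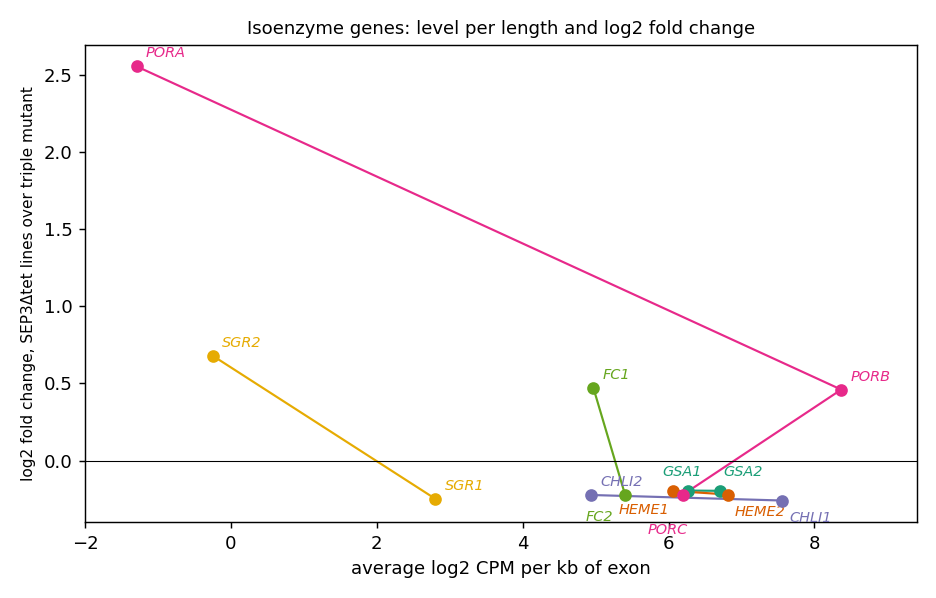
Log2 fold change of SEP3Δtet lines over triple mutant against the average level in log2 CPM per kb of exon, for isoenzyme genes; lines join the members of a family. GSA, HEME and CHLI genes lie close together near -0.2, while FC1 and FC2 lie on opposite sides of 0 and PORA and SGR2 are rare.

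The 36 genes lie on all 5 chromosomes, 8 each on chromosomes 1, 3, 4 and 5 and 4 on chromosome 2. In 3 pairs the genes lie within 100 kb of each other: HEMF1 and PORC (36.2 kb apart), HEMD and HO1 (51.2 kb) and CHLH and PPH (59.3 kb). CHLH fell while PPH was not called, and the members of the other pairs were not called.

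Of 23 other enzymes and helpers, 21 were in the authors' deposited table, of which 4 fell, 1 rose and 16 were not called, with a median of -0.18. Among all genes 5.88% were called lower and 11.6% higher. NOL, the partner of NYC1 in chlorophyll b reduction, fell by 0.49 (adjusted p = 0.0066) per the authors' deposited table. SGRL, a stay-green homologue, fell by 0.47 (adjusted p = 0.016) and TIC55, which hydroxylates chlorophyll catabolites, by 0.36 (adjusted p = 0.015) per the authors' deposited table. GBP, a binding protein that stabilises the HEMA1 enzyme, fell by 0.29 (adjusted p = 0.024) per the authors' deposited table. NOL, SGRL and TIC55 act in breakdown, where 0 of the 7 genes above was called. Further breakdown genes of this list were not called and are named after their values were seen. They are CYP89A9 (-0.43), MES16 (-0.10), CLH1 (-0.004) and CLH2 (0.60) per the authors' deposited table. HO3, a further haem oxygenase gene, rose by 1.25 (adjusted p = 0.034) at 0.58 log2 CPM per the authors' deposited table, a gene left out when 1 log2 CPM is required.

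Regulators of the pathway included larger changes. Among 20 transcription and signalling genes there were 8 that fell, 2 that rose and 10 without a call. The shares over all genes were 5.88% lower and 11.6% higher. GLK1 and GLK2 encode the transcription factors that activate chlorophyll and light-harvesting genes. GLK1 fell by 1.04 on the log2 scale or 51.4% (F = 72.2, adjusted p = 9.0e-05) and GLK2 by 0.81 or 42.9% (F = 24.5, adjusted p = 0.0048) per the authors' deposited table. GNC, a GATA factor that promotes greening, fell by 0.99 (adjusted p = 0.015) and SIG2, a plastid sigma factor, by 0.46 (adjusted p = 0.015) per the authors' deposited table. The other genes that fell are named after their values were seen. GUN1, a plastid protein of retrograde signalling, stood at -0.43 and PIF5, a phytochrome-interacting bHLH factor, at -0.81 per the authors' deposited table. The clock genes CCA1 and LHY stood at -1.51 and -2.67 (adjusted p = 0.039 and 0.040) per the authors' deposited table. The sample labels list no hour of harvest, and any part of time of day in the pathway's values was not tested. The 2 that rose are known from senescence and abscisic acid signalling, ORE1 by 2.15 (adjusted p = 8.1e-04) and ABI5 by 1.56 (adjusted p = 9.1e-04) per the authors' deposited table. ORE1 is known as an activator of breakdown genes in leaves. It averaged only 1.13 log2 CPM per the authors' deposited table, and a link to the 7 breakdown genes was not tested.

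**Figure D4:**
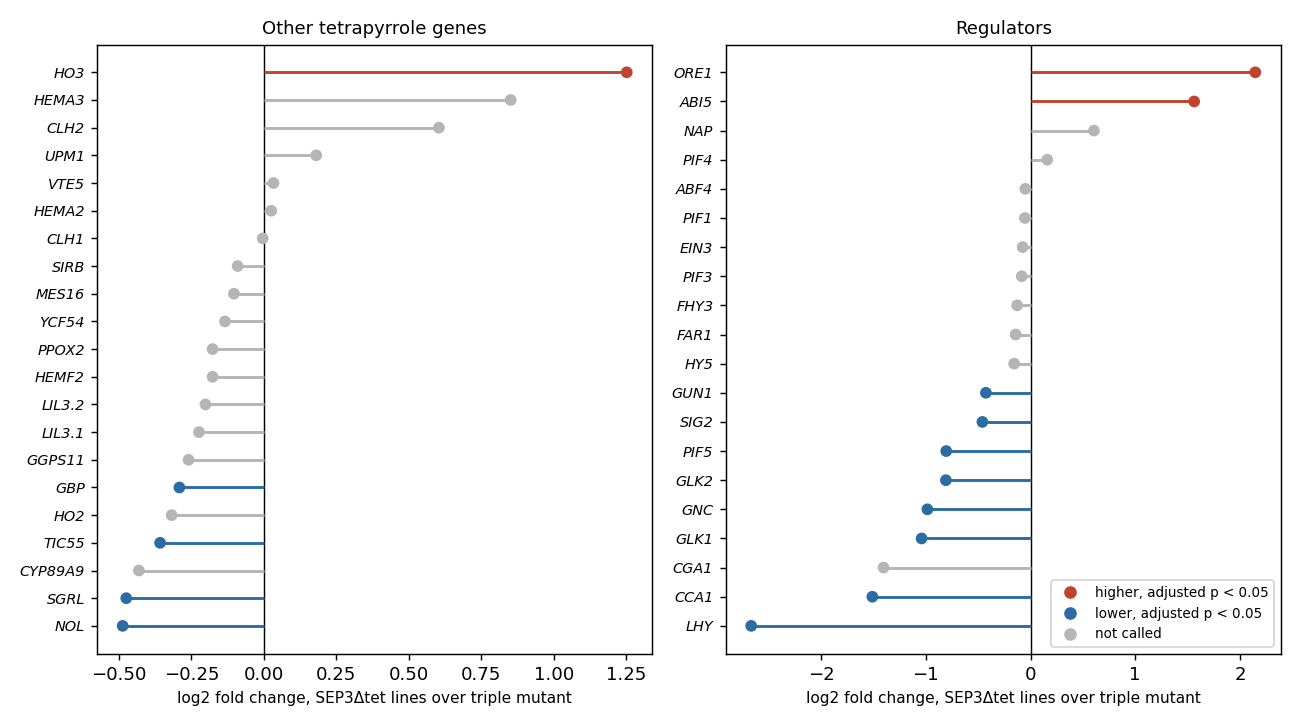
Log2 fold changes of SEP3Δtet lines over triple mutant per the authors' deposited table for 21 other tetrapyrrole genes (left) and 20 regulators (right), sorted by value and coloured by call. The horizontal scales differ: the lowest value is -0.49 (NOL) on the left and -2.67 (LHY) on the right.

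Tissue markers shifted too, with green tissue markers lower and tapetum markers higher in the SEP3Δtet lines. Of 14 markers of green tissue (Rubisco, light-harvesting and photosystem genes), 12 fell, none rose (0) and 2 lacked a call, with a range of -1.40 to -0.32 and a median of -0.44 per the authors' deposited table. All 14 tapetum markers rose, by 2.32 to 3.95, with a median of 3.49 per the authors' deposited table. The shares over all genes were 5.88% lower and 11.6% higher. Both marker lists were chosen with earlier results of these data known, so their counts describe the listed genes only. Among the floral markers, AP1, which acts in floral meristems and sepals, fell by 1.003 (adjusted p = 5.7e-06) and LFY by 0.73 (adjusted p = 0.0037) per the authors' deposited table. The petal and stamen identity genes PI and AP3 rose by 0.77 (adjusted p = 0.0017) and 0.33 (adjusted p = 0.047) per the authors' deposited table, and AG was not called at 0.16 (adjusted p = 0.440). In RNA of whole inflorescences, fewer cells of a type and less RNA per cell cannot be told apart. With no bud stage listed for the triple mutant, a difference in stage cannot be told apart from genotype. The part of the marker shifts in the pathway's values was not tested. With all log2 fold changes recentred on the median of genes of at least 4 log2 CPM (-0.04), 9 of the 36 genes fell and 1 rose, against 4.32% lower and 12.7% higher among all genes.

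**Figure D5:**
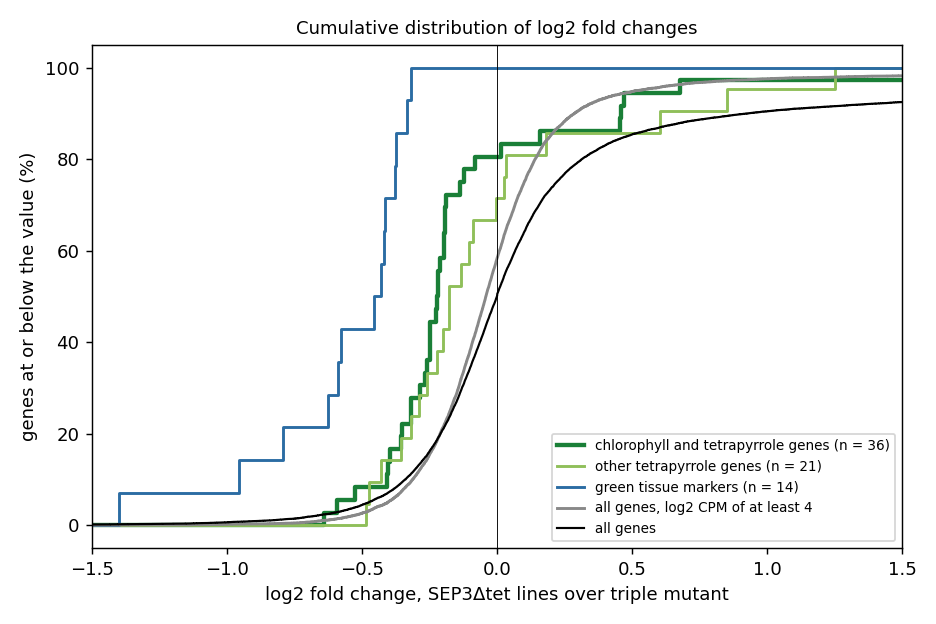
Cumulative share of genes against log2 fold change of SEP3Δtet lines over triple mutant per the authors' deposited table. The curve of the 36 genes (thick green, median -0.22) lies left of those of abundant genes (grey, median -0.04) and of all genes (black) for most of its length, and right of that of the 14 green tissue markers (blue, median -0.44).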

How the data were processed

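Poly(A) RNA of 3 libraries, 1 per SEP3Δtet line, was read as 150 bp pairs, per the series text. STAR, featureCounts, edgeR and the build TAIR10 are named in the submitters' processing notes; no source used here gives versions, strand setting, filter or model. The authors deposited 1 comparison table. Per the file headers it gives each gene's log2 fold change and average log2 CPM. The deposited table adds a score, the F statistic, and its p-value, raw and adjusted, which is the column set of the authors' edgeR quasi-likelihood F-test. A positive value is taken to mean higher in SEP3Δtet lines, since the comparison names that genotype first. Adjusting the deposited raw values by Benjamini-Hochberg across all 19777 genes returned the deposited adjusted values to within 1.8e-15. Depth per library is unknown, so no interval is given, and the p-values reflect only how much the authors' libraries varied.

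The 36 genes and all lists were chosen with earlier results of these data known. Each of the 36 is named. Of other tetrapyrrole genes and of regulators, up to 6 called genes with the smallest p are named, and exceptions are marked. The rule's up to 3 named genes per tissue marker list are given only as counts and ranges. Gene functions are background knowledge. Positions, exon lengths and upstream DNA come from RefSeq's TAIR10.1, in which 19756 of the table's loci were found and 21 were not, and were read with pysam 0.24.0. Recentred p-values used the spread implied by F and its degrees of freedom (median 11.85), and only approximate a refit. That code was tested on simulated data over 19777 genes, where 153 of 200 planted log2 changes of 2 were recovered. The falls of the 36 genes were smaller, -0.27 to -0.64, and recovery at that size was not tested. Alternatives were an adjusted p of 0.01, Bonferroni, a log2 fold change of at least 1, filters at 1 and 4 log2 CPM, recentring, and a shorter promoter window; the filter at 4 was chosen after the data were seen. Python 3.11.15 and scipy 1.17.1 were used.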

Additional observations from a re-analysis of the deposited data

How the results depend on the processing

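The direction of all 36 genes held under every alternative that kept them, since the alternatives move thresholds or the centre by 0.04. The number of the 36 genes that fell was 11, and became 5 at an adjusted p of 0.01 (CHLD, CHLH, CHLP, CHLG and CAO), 0 by Bonferroni and 0 when a 1 log2 unit change was required. The number that rose was 1, and became 0 in those 3 settings and 0 when the adjustment took in just the genes at 4 log2 CPM or above. With recentring 9 fell, and PPOX1 (adjusted p = 0.069) and CHLM (adjusted p = 0.071) were no longer called; at 1 log2 CPM or more all 12 calls stood. The median log2 fold change ran from -0.22 to -0.18 over the settings. Of the other tetrapyrrole genes, the 4 lower calls became 1 at an adjusted p of 0.01, 0 by Bonferroni and 0 when a 1 log2 unit change was required. Their 1 higher call became 0 at an adjusted p of 0.01, by Bonferroni, and under the filters at 1 and 4 log2 CPM. Of regulators, the 8 lower calls became 2 at an adjusted p of 0.01, 1 by Bonferroni and 3 when a 1 log2 unit change was required. Their 2 higher calls became 0 by Bonferroni and 1 at 4 log2 CPM or more. CCAATC was found in 6 of the 36 genes over 300 bases, 16.7% against 12.7% of all genes searched. Over the 250 bases before the start it was found in 3, or 8.33%, against 10.5%, so its higher share did not hold. The losses under recentring come with a shift of the centre by 0.04, and the others with a stricter threshold, a change in the genes tested or a shorter window. No paired analysis was possible because no values per library were at hand, and for the same reason no fit without 1 line was run. Average abundance limits PORA and SGR2, at -0.56 and 0.15 log2 CPM.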
